A study of Mus musculus with 16 samples.

Results

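A set of 8 epithelial regulators was followed across the overexpression experiments: the splicing regulators Esrp1 and Esrp2 and the transcription factors Grhl2, Ovol1, Ovol2, Elf3, Ehf and Klf5. They were chosen by name, by their current or older symbols (Esrp1 and Esrp2 stand as Rbm35a and Rbm35b in the array files), and they are 8 of the 27670 genes on the array. All 17 of their probes were taken: 14 were matched by accession, 1 by symbol and 2 by synonym. Of these, 10 probes passed the filter, which asked for a sample signal well above background on both arrays of at least 1 group, and every one of the 8 genes kept at least 1 probe. Esrp1 passed only through the Clusters 1+2 group, so its presence among the genes tested is itself tied to that group. The Ovol1 probe used likewise passed only through Clusters 1+2, while a second Ovol1 probe passed through other groups.

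The cells were 4TO7, a line from a mouse mammary carcinoma, kept in 10% serum, and all of them carried retroviral pMSCV vectors. Gene expression was measured on 16 Agilent arrays in 2 colours, each with a sample against the same universal reference, RNA of 11 cell lines of the mouse. The 8 groups had 2 repeats each, A and B, and the repeats are the n of every comparison, less any spot left out, as stated beside its value. Cluster 1 cells overexpressed cluster 1 miRNAs stably and had a Puro vector control. Cluster 2 cells had a Hygro vector control, Clusters 1+2 cells a control with both the Hygro and the Puro vector, and CDH1 cells, which stably overexpressed E-cadherin, a Puro vector control of their own. The sources used here do not say whether a line was 1 clone or whether repeats came from separate infections, so p-values measure the spread between these repeats. The sample carried Cy3 in the Hygro vec, Cluster 2, Hygro vec + Puro vec and Clusters 1+2 groups, whose repeats A lay on slide 1 and repeats B on slide 2. It carried Cy5 in the other groups, with CDH1 and its control on slide 3 and Cluster 1 and its control on slide 4. Levels are therefore set side by side only within 1 dye.

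As background, Esrp1 and Esrp2 bind RNA and choose epithelial exons in transcripts such as Fgfr2 and Cd44. Grhl2 is a grainyhead factor that activates junction genes including Cdh1, the gene of E-cadherin, and the Ovol zinc finger factors repress mesenchymal genes. Elf3 and Ehf are ETS factors of epithelia, and Klf5 is a Krüppel-like factor of proliferating epithelial cells. Zeb1 and Zeb2, which repress epithelial genes including Cdh1, are the best known targets of the miR-200 family.

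The miR-200 family is shown here because its seeds (bases 2 to 8, in capitals) set which transcripts each miRNA can pair with. The mature 3p forms, from RefSeq on GRCm38.p6, fall into 2 seed groups, 3 with AAUACUG and 2 with AACACUG. By position, 3 lie on chromosome 4 and 2 on chromosome 6. The sources used here do not say which of them the labels Cluster 1 and Cluster 2 mean.
miR-200b-3p: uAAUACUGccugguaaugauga
miR-200c-3p: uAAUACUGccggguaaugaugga
miR-429-3p: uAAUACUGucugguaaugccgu
miR-200a-3p: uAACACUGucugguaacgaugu
miR-141-3p: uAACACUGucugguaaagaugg

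The probes that carry the main results are shown next by their first 30 bases, with positions in build mm7 as the files give them. Both Esrp1 and both Esrp2 probes are given, since the probes of a gene did not behave alike, and the Grhl2 probe is the brightest of 3. Whether a probe lies in coding sequence or in a UTR was not determined, because no annotation of that build was used.
Esrp1 probe A_52_P79821 at chr4:11259829-11259888: taagaagaaagtaggggccaaaatttgaaa
Esrp1 probe A_51_P467981 at chr4:11284996-11285055: ccaaaaaagggtcacttttcagtcatgata
Esrp2 probe A_52_P322301 at chr8:104730046-104730105: tgatggtgtgacagccagaaaaccttccat
Esrp2 probe A_51_P296517 at chr8:104729504-104729563: ttggaagaccagttgtccaaaagccagcaa
Grhl2 probe A_51_P362328 at chr15:37474056-37474115: aaattctaagaatggccctttctgaaggac

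Detection differed widely among the regulators. The sample signal of Klf5 was well above background on all 16 arrays, and Ovol2 and Esrp2 each on 15 with the probes used. Grhl2 was above background on 13 arrays, Ehf on 12 and Elf3 on 9. Ovol1 was above background on 5 arrays with the probe used, and on 7 with its second probe that passed the filter, A_51_P225827. Esrp1 was above background on 2, both of them Clusters 1+2 arrays. Esrp1 was not above background on any array in the reference channel either, so its ratio has a floor on the reference side. The other probes were mostly dim: the second Esrp1 probe and 1 probe each of Grhl2 and Ehf were above background on 0 of 16 arrays.

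**Figure D1:**
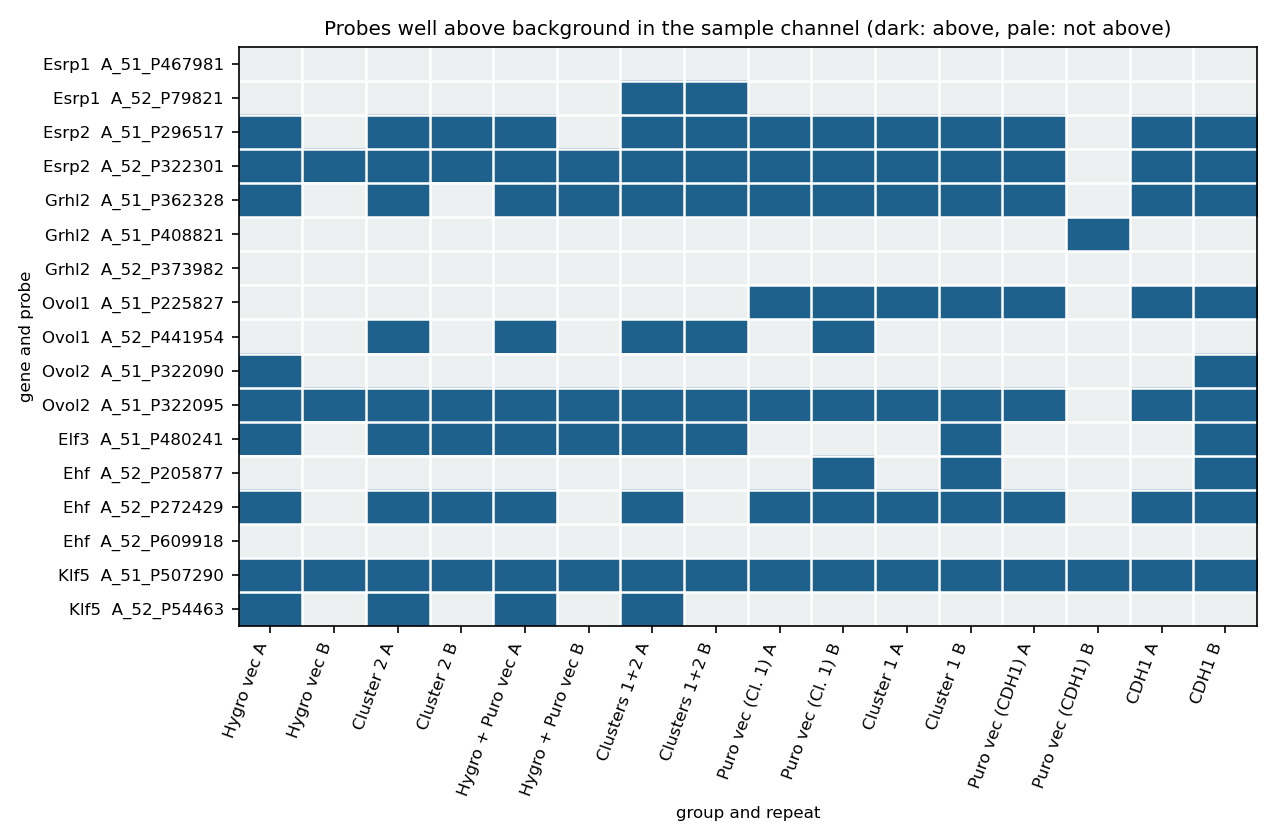
Detection of the 17 probes (rows) on the 16 arrays (columns, grouped with repeats A and B side by side); dark cells are sample signals well above background and pale cells are not. The Esrp1 probe A_52_P79821 is dark only on the 2 Clusters 1+2 arrays, and the Klf5 probe A_51_P507290 is dark on all 16.

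Facts of the arrays that touch these values are few. Across genes, repeats of a group had a correlation of 0.938 to 0.981, though genes are no independent replicates. The CDH1 Puro vec control repeat B array was thin, with 13540 spots above background in the sample channel beside 20132 to 30056 on the others. Of the epithelial markers, Krt8, Krt18 and Krt14 were above background on all 16 arrays and Cdh1 on 14. Of 8 mesenchymal markers 7 were above background on all 16 arrays, while Cdh2 was on 2. Among leukocyte markers the defining gene Ptprc was above background on 3 arrays, with log2 ratios of -5.27 to -1.96, and Pecam1, an endothelial marker, on 5. Of 15 leukocyte, endothelial and adipocyte markers tested, limma called 0 in each of the 4 comparisons, with 1 to 4 at an unadjusted p under 0.05. Fewer cells of a type and less RNA per cell cannot be told apart in such bulk samples.

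With both clusters together, 5 of the 8 regulators were higher and 0 lower than in the matched vectors, beside 12.0% of all 18961 genes tested called higher and 12.8% called lower. Esrp2, Esrp1 and Grhl2 moved most, and Elf3 and Ovol1 by less. Ovol2, Ehf and Klf5 did not pass the test. The median log2 fold change of the 8 was 0.37, and that of all genes 0.00. Esrp1 and Ovol1 are in this count and median, on probes that passed the filter only through Clusters 1+2. Neither is therefore independent of that group.

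Esrp1 was the regulator that came up from below background. Its log2 ratios to the reference were 1.39 and 1.18 in Clusters 1+2 and -0.02 and -0.11 in the Hygro vec + Puro vec control. On the other 12 arrays it lay between -0.09 and 0.11, and none of those was above background. Both Clusters 1+2 arrays thus stood apart from every other array. In the processed signals that the authors deposited, the sample channel read 337 and 162 in Clusters 1+2 and 10.5 and 30.8 in its control. The log2 fold change was 1.35 (SE 0.0862, n = 2 against 2, limma adjusted p = 1.98e-07), 1.41 on slide 1 and 1.29 on slide 2. Since neither control array was above background, the size is a bound, and in this normalisation Esrp1 was at least 1.84-fold higher. From the sample channel alone the log2 fold change was 0.74 (adjusted p = 0.00987), which is less than that bound. That bound sets the Clusters 1+2 mean against, per array, the higher of the control's own signal and the lowest signal well above background. The second Esrp1 probe, A_51_P467981, read 0.26 and 0.19 in Clusters 1+2 beside 0.21 and 0.13 in the control and stayed below background, so the rise was seen by 1 probe of 2.

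Esrp2, the paralogue of Esrp1, was called higher on both of its probes. On probe A_52_P322301 the log2 ratio was 2.06 on Clusters 1+2 repeat A, while the spot on repeat B was marked by the scanner software and left out. The control arrays read 0.16 and 0.09. The log2 fold change there was 1.94 (SE 0.138, n = 1 against 2, adjusted p = 1.04e-06), which is 3.84-fold, and it assumes that the lone array varies like the other groups. On the second probe, A_51_P296517, all 4 arrays gave values: 2.27 and 1.94 against 0.06 and -0.19. Its log2 fold change in the fit over probes was 2.17 (SE 0.117, adjusted p = 4.04e-08), 4.49-fold, and the groups did not overlap. Control repeat B was not above background on this probe, so that fold rests partly on an undetected signal. In that fit 6 of the 10 probes were higher and 0 lower, beside 11.8% and 11.7% of all probes. The 6 include the Esrp1 and Ovol1 probes that passed the filter only through Clusters 1+2.

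Grhl2 rose with the pair of splicing regulators. Its log2 ratios were 0.87 and 0.80 in Clusters 1+2 and -0.50 and -0.28 in the control, so it moved from below the level of the reference RNA to above it. The log2 fold change was 1.23 (SE 0.0867, n = 2 against 2, adjusted p = 4.51e-07), 2.35-fold, with 1.38 on slide 1 and 1.09 on slide 2. All 4 arrays were above background on this probe. The other Grhl2 probes, A_51_P408821 and A_52_P373982, were below background on these arrays and gave no test.

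**Figure D2:**
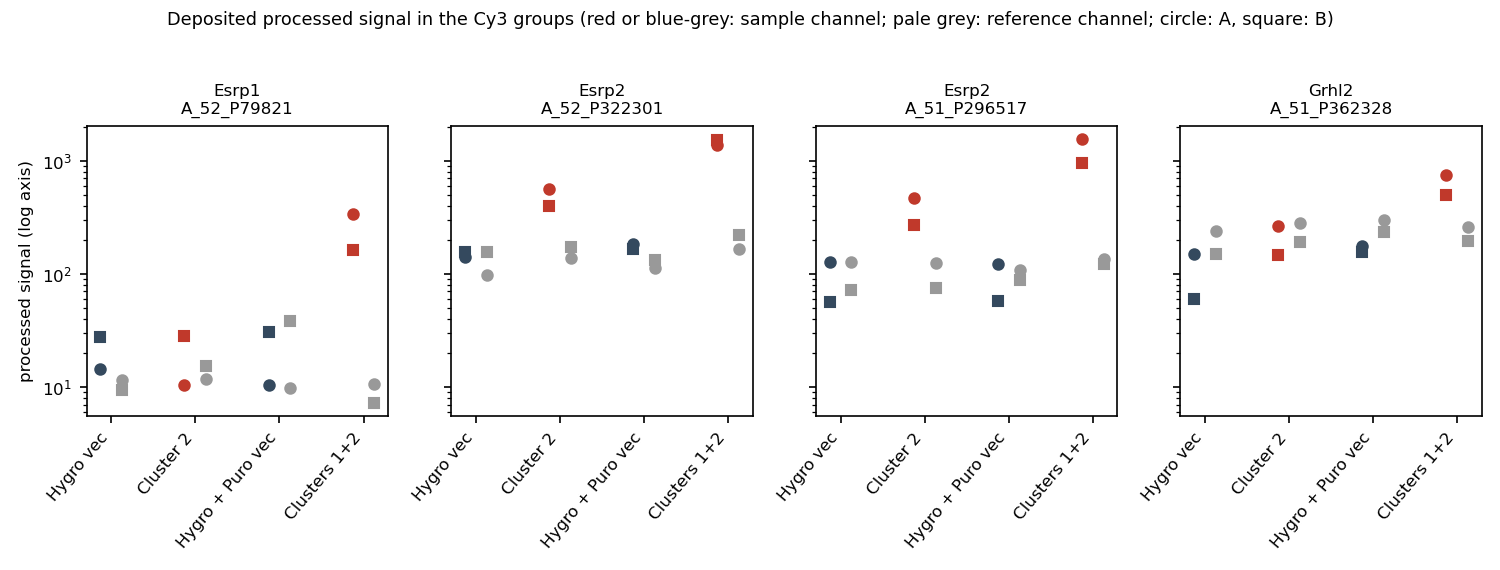
Deposited processed signal (log axis) of the Esrp1, Esrp2 and Grhl2 probes in the 4 Cy3 groups, with the sample channel in red (overexpression) or blue-grey (control), the reference in pale grey, circles for repeat A and squares for repeat B. Sample signals of Clusters 1+2 lie above all others in each panel, for Esrp1 at 337 and 162, while no reference signal exceeds 302.

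Elf3 and Ovol1 were higher by smaller amounts. Elf3 read -0.85 and -0.50 in Clusters 1+2 and -1.15 and -1.09 in the control, below the reference in all 4. Its log2 fold change was 0.44 (SE 0.113, n = 2 against 2, adjusted p = 0.0116), with 0.29 on slide 1 and 0.59 on slide 2. The Elf3 call ended without Clusters 1+2 replicate B (0.27, adjusted p = 0.14) and without Hygro vec + Puro vec replicate A (0.41, adjusted p = 0.0596). Ovol1 read 0.25 and 0.37 against 0.04 and 0.00 on probe A_52_P441954, a log2 fold change of 0.29 (SE 0.0864, adjusted p = 0.0261). On the second Ovol1 probe, A_51_P225827, no difference could be measured, since it was below background on these 4 arrays. The Ovol1 call ended without replicate A (adjusted p = 0.0597) or B (adjusted p = 0.124) of the control and without Clusters 1+2 replicate B (adjusted p = 0.172).

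Ovol2, Ehf and Klf5 were not called with both clusters. Ovol2 read 0.22 and 0.10 against -0.05 and -0.09, a difference of 0.23 (SE 0.0835, adjusted p = 0.0645, 95% interval 0.05 to 0.41), with both arrays above both controls. Ehf, at -0.06 and -0.21 against 0.08 and 0.00, differed by -0.18 (SE 0.0898, adjusted p = 0.197) and lay below both controls. Klf5 read 0.49 and 0.49 against 0.49 and 0.58, a difference of -0.05 (SE 0.0685, adjusted p = 0.717, 95% interval -0.19 to 0.10), and its groups overlapped. In all, 5 of the 7 regulators with values on all 4 arrays lay above both controls and 1 below, beside 29.3% and 28.5% of all genes. Esrp1 and Ovol1 are among the 5, on probes that passed the filter only through Clusters 1+2.

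**Figure D3:**
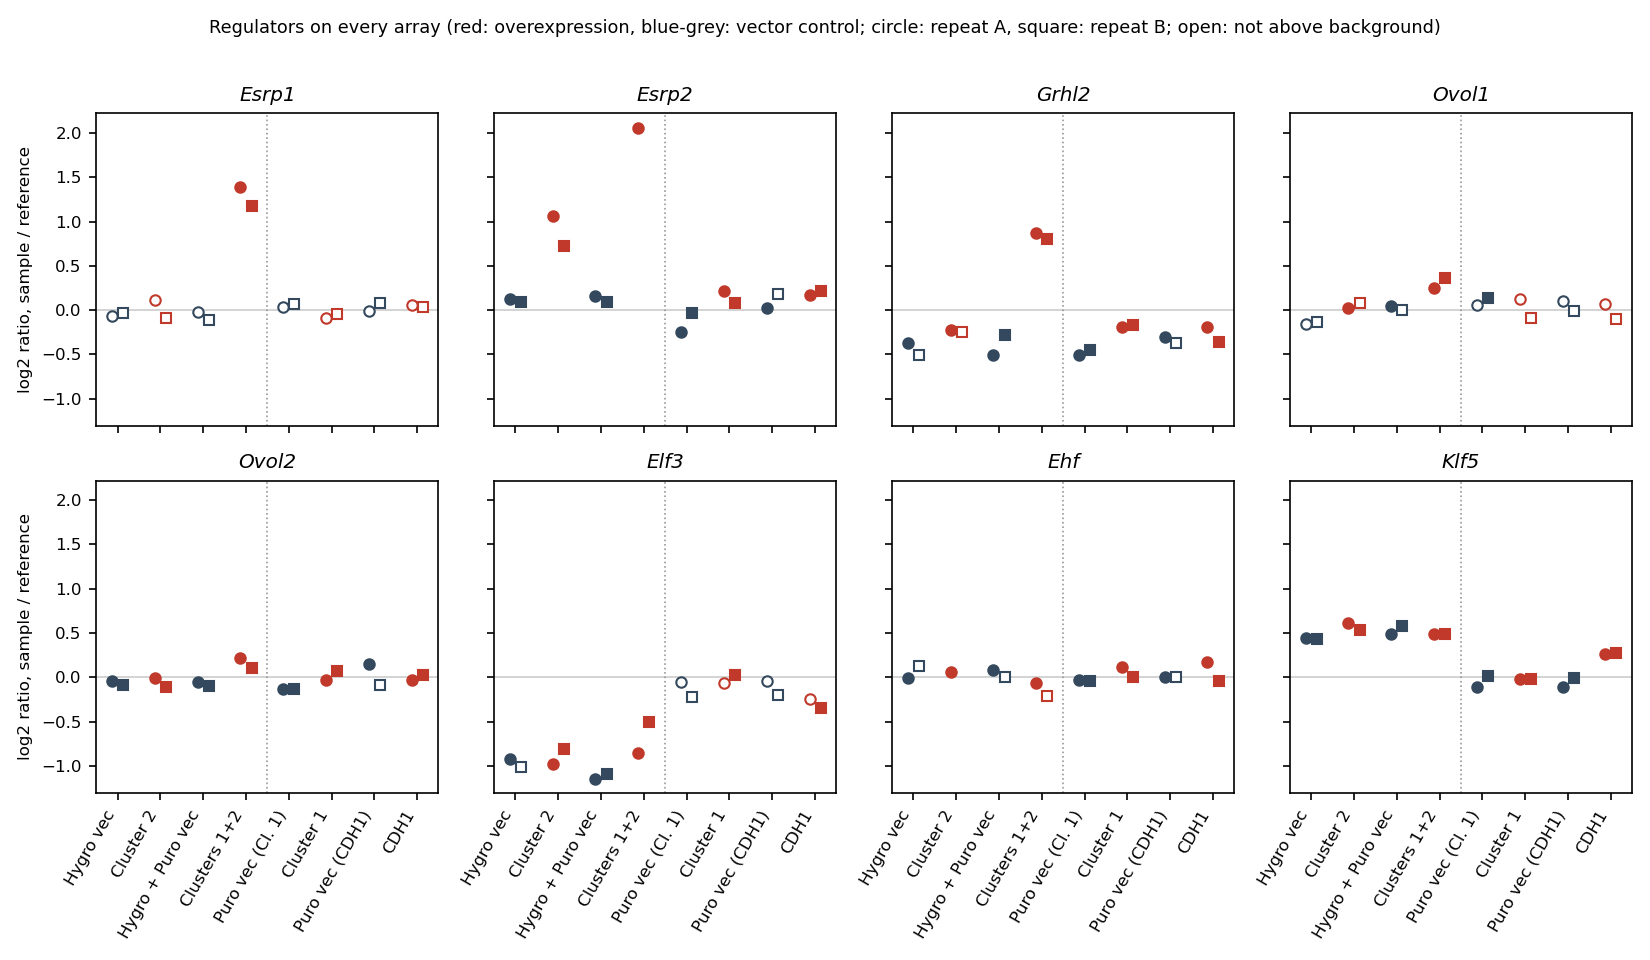
Log2 ratio of sample over reference for each of the 8 regulators on every array, by group, with Cy3 groups left and Cy5 groups right of the dotted line; red marks overexpression, blue-grey the vector controls, circles repeat A, squares repeat B, and open symbols signals not above background. Esrp1 stands at 1.39 and 1.18 in Clusters 1+2 and near 0 elsewhere, and Elf3 and Klf5 differ between the dyes in controls as well.

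Cluster 2 alone moved Esrp2 and no other regulator past the test, 1 of 8 higher beside 1.71% of 18944 genes and 0 lower beside 1.04%. Esrp2 read 1.07 and 0.73 in Cluster 2 and 0.13 and 0.09 in the Hygro vector. Its log2 fold change was 0.79 (SE 0.112, n = 2 against 2, adjusted p = 0.00251), 1.72-fold, with 0.94 on slide 1 and 0.63 on slide 2. The second Esrp2 probe, A_51_P296517, gave 0.91 (SE 0.117, adjusted p = 0.000903 over probes) with 1 of 2 control arrays above background, and 2 of 10 probes were higher and 0 lower beside 1.43% and 0.792% of all probes. Grhl2, with -0.22 and -0.25 against -0.37 and -0.51, differed by 0.21 (adjusted p = 0.287), and 1 array of each group was not above background. Ovol1 differed by 0.20 (adjusted p = 0.314) and Klf5 by 0.13 (adjusted p = 0.395), while Esrp1 was not above background on any of the 4 arrays. The Ovol1 probe used was above background on 1 Cluster 2 array alone. Elf3, Ovol2 and Ehf lay between 0.00 and 0.07, with adjusted p from 0.848 to 0.994, and Ehf had 1 Cluster 2 array. Both Cluster 2 arrays lay above both controls for 4 of the 7 regulators with 4 values and below for 0, beside 21.9% and 22.4% of all genes. The Esrp2 call did not hold with the processed signals (1.34, adjusted p = 0.101), with scaled spread (0.61, adjusted p = 0.137), from the sample channel alone (0.50, adjusted p = 0.829), with marked spots kept (0.73, adjusted p = 0.0852) or with only the 4 arrays in the fit (adjusted p = 0.173).

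Clusters 1+2 and Cluster 2 share dye and slides, and the difference of their effects was tested directly. It was 1.15 for Esrp2 (SE 0.178, adjusted p = 0.00242) and 1.02 for Grhl2 (SE 0.123, adjusted p = 0.000306). The second Esrp2 probe, A_51_P296517, gave 1.26 (SE 0.166, adjusted p = 0.000643 over probes), with 1 array of each control above background. For Esrp1 the fit gave 1.29 (SE 0.122, adjusted p = 5.97e-05), but 3 of the 4 groups behind it were below background and the probe was tested only through Clusters 1+2, so this is no measured size. With Esrp1 counted, the joint effect was called larger for 3 of 8 regulators, beside 2.91% of all 18928 genes, and smaller for 0, beside 3.32%. Elf3 (0.37, adjusted p = 0.223), Ovol2 (0.22, adjusted p = 0.325), Ovol1 (0.09, adjusted p = 0.742), Ehf (-0.17, adjusted p = 0.562) and Klf5 (-0.18, adjusted p = 0.338) did not pass. In the order of Cy3 levels, Esrp2 ran from Clusters 1+2 over Cluster 2 to both controls, whose values overlapped. For Grhl2 the same order held, with Cluster 2 above both controls without overlap but not past the test. For Esrp1 the order ended after Clusters 1+2, since the other 3 groups overlapped below background. From the sample channel alone none of the 3 differences passed (adjusted p from 0.175 to 0.478). The processed signals also ended the calls of Esrp2 (1.19, adjusted p = 0.338) and Grhl2 (1.37, adjusted p = 0.0513), and the Esrp2 difference did not pass with offset 10 (1.30, adjusted p = 0.0558) or scaled spread (0.93, adjusted p = 0.109).

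Cluster 1 alone called 0 of the 8 regulators with limma, beside 4.85% of 18973 genes higher and 3.37% lower. Grhl2 came nearest, with -0.19 and -0.17 against -0.51 and -0.45, a difference of 0.30 (SE 0.0867, adjusted p = 0.0527). It was called with offset 10 (0.53, adjusted p = 0.0306), scaled spread (0.36, adjusted p = 0.0271) and only the 4 arrays in the fit (0.30, adjusted p = 0.035). Before adjustment over all genes, limma's p was 0.00444 for Grhl2 and 0.0264 for Esrp2, and no other regulator was under 0.05. For Grhl2 all 4 arrays were above background and both Cluster 1 arrays lay above both controls. Esrp2 read 0.21 and 0.08 against -0.25 and -0.03 on probe A_52_P322301, a difference of 0.29 (SE 0.112, adjusted p = 0.171). Its second probe, A_51_P296517, read 0.43 and 0.47 against 0.01 and -0.02 and passed in the fit over probes, at 0.46 (SE 0.117, adjusted p = 0.0376), beside 3.65% of 27067 probes called higher and 2.45% lower. The Esrp2 probes thus fell on both sides of the threshold, with the same direction. Ovol2 (0.15, adjusted p = 0.359), Elf3 (0.12, adjusted p = 0.684, and 0.97, adjusted p = 0.032, with the processed signals), Ehf (0.10, adjusted p = 0.663) and Klf5 (0.03, adjusted p = 0.899) lay above 0. Elf3 was above background on 1 Cluster 1 array and 0 control arrays, so both of its values rest partly on undetected signal. Ovol1 (-0.08, adjusted p = 0.74) and Esrp1 (-0.12, adjusted p = 0.53) lay below, and Esrp1 was not above background on any of these arrays. The Ovol1 probe used was above background on 1 control array alone. The second Ovol1 probe, A_51_P225827, was above background on all 4 arrays. It gave -0.11 (adjusted p = 0.746 over probes), with both Cluster 1 arrays below both controls. Values lay above both controls for 4 regulators and below both for 1, beside 27.2% and 24.2% of all genes. The effects of Cluster 1 and Cluster 2 did not differ past the limma test for any of the 8 regulators (Esrp2 and Ovol1 were under 0.05 before adjustment), at an adjusted p of 0.135 for Esrp2, the lowest, beside 1.73% of all genes higher and 0.935% lower.

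In CDH1 cells, in which E-cadherin was overexpressed without the miRNAs, Klf5 was the 1 regulator called higher and 0 were lower, beside 7.62% and 6.87% of 18983 genes. In the fit over probes 1 of 10 was higher and 0 lower, beside 6.29% and 5.47% of 27078 probes. Klf5 read 0.27 and 0.27 in CDH1 and -0.10 and 0.00 in the control. The log2 fold change was 0.32 (SE 0.0685, n = 2 against 2, adjusted p = 0.00673), 1.25-fold. All 4 arrays were above background, and the CDH1 arrays lay above both controls. For 1 of 8 regulators both CDH1 arrays lay above both controls and for 1 below, beside 28.0% and 26.4% of all genes. The call ended without CDH1 Puro vec control replicate A (0.27, adjusted p = 0.0553), with marked spots kept (0.28, adjusted p = 0.0543) and from the sample channel alone (0.37, adjusted p = 0.122). The second Klf5 probe, A_52_P54463, was below background in the sample channel on these arrays. The effect of Cluster 1 minus that of CDH1 was -0.29 for Klf5 (adjusted p = 0.0564) and was not called. None of the 8 passed in that difference with limma (at an unadjusted p under 0.05, Klf5 alone), beside 8.85% of all genes higher and 8.17% lower.

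The other regulators did not pass the test in CDH1 cells. Esrp1 (0.01, adjusted p = 0.971), Esrp2 (0.10, adjusted p = 0.677), Grhl2 (0.07, adjusted p = 0.716), Ovol1 (-0.06, adjusted p = 0.754), Ovol2 (-0.04, adjusted p = 0.865) and Ehf (0.07, adjusted p = 0.737) overlapped with their controls. The Esrp1 and Ovol1 probes used were not above background on any of these 4 arrays, so they could measure no difference. The second Ovol1 probe, A_51_P225827, was above background on 2 CDH1 arrays and 1 control array. It gave 0.20 (adjusted p = 0.337 over probes), with both CDH1 arrays above both controls. On the second Esrp2 probe, A_51_P296517, both CDH1 arrays likewise lay above both controls, by 0.19 (adjusted p = 0.368 over probes). That probe was above background on 2 CDH1 arrays and 1 control array. Elf3 read -0.24 and -0.35 against -0.04 and -0.20, a difference of -0.18 (adjusted p = 0.366), and was above background on 1 of these 4 arrays. The processed signals gave -1.40 for Elf3 (adjusted p = 0.00366). The thin control array repeat B was below background for Esrp2, Grhl2, Ovol2 and Ehf, which the other 3 arrays detected. On that array a dim Grhl2 probe, A_51_P408821, read 730 in processed signal, beside 9.62 to 49.3 on the other 15. Both channels of that spot were above background, the reference at 358. The 2 Puro vector controls, on different slides, did not differ past the test for any of the 8 regulators (limma called 0, and at an unadjusted p under 0.05 also 0), beside 5.18% of 18980 genes higher and 4.85% lower.

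**Figure D4:**
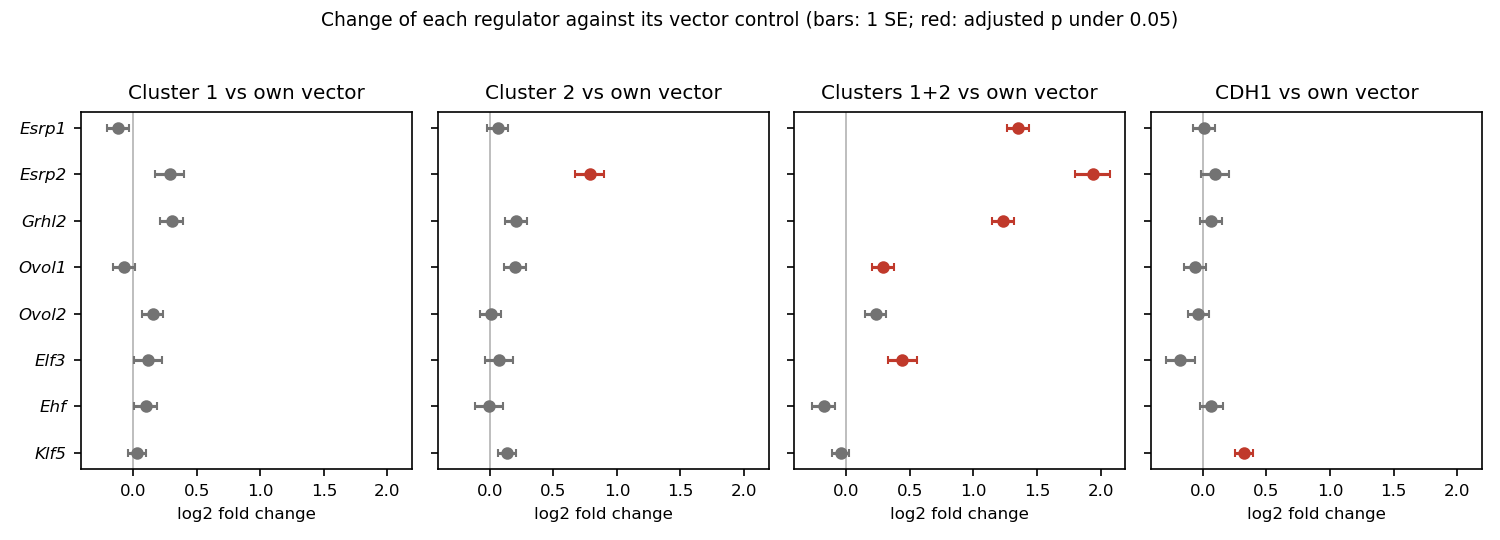
Log2 fold change of the 8 regulators (rows) in each overexpression against its own vector (panels), with bars of 1 SE; red points passed an adjusted p under 0.05. The Clusters 1+2 panel holds 5 red points, Cluster 2 holds Esrp2 (0.79), CDH1 holds Klf5 (0.32) and Cluster 1 holds none.

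The spread of the regulators between repeats, which a call already takes into account, is given next. The SD of 2 repeats had a median over the 8 groups of 0.0507 for Esrp1, 0.0908 for Esrp2, 0.0481 for Grhl2 and 0.0322 for Klf5. It was 0.0948 for Elf3 and 0.0788 for Ehf. After subtracting the mean of each experiment, Esrp1 and Grhl2 correlated at 0.91 over the arrays, Esrp2 and Grhl2 at 0.892, and Esrp1 and Esrp2 at 0.855. Esrp1 and Klf5 gave -0.0832. These values come from the same arrays and describe these libraries. Those with Esrp1 rest on the 2 Clusters 1+2 arrays through which it was tested, so they restate its rise there.

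Esrp1 was above background on 2 and Ovol1, on the probe used, on 5 of the 16 arrays. Correlations with Esrp1 thus rest on those 2 arrays, and the genes most like either are not given. By the same measure, over the 15 arrays with a value, Esrp2 was most like Map7 (0.967), Plac1 (0.965) and Tnk1 (0.963). Tnk1 was at 1.33 in Cluster 2 (adjusted p = 0.00257) and at 2.24 with both clusters (adjusted p = 4e-06), and the difference was not tested. Since Tnk1 was picked for its likeness to Esrp2 over these arrays, a shared order is no separate result. Grhl2 was most like Bst1 (0.984), Jund (0.981) and Syngr2 (0.976). For Elf3, above background on 9 arrays, the nearest were Gpt2 (0.915) and Tbx15 (0.91), and for Klf5 Tubg1 (0.952) and Kdm1a (0.93).

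Genes reported as targets of these transcription factors were counted beside them. Of 11 measured, 9 were higher and 0 lower in Clusters 1+2, beside 12.0% and 12.8% of all genes, with a median of 1.99. Lsr, a tricellular junction gene, stood at 3.71 (adjusted p = 9.68e-10), Epcam, an epithelial adhesion gene, at 3.23 (adjusted p = 3.08e-08), Cdh1 at 2.86 (adjusted p = 8.76e-09) and the tight junction gene Cldn4 at 2.56 (adjusted p = 3.6e-06). Outside Clusters 1+2 and its control, Cldn4 was above background on at most 1 array of a group. It was thus tested only through this experiment, and it is among the 9. In Cluster 1 and in Cluster 2, 5 of the 11 were higher and 0 lower, with medians of 0.80 and 0.67, beside 4.85% and 1.71% of all genes higher. Cdh1 rose there by 1.21 (adjusted p = 9.49e-05) and 1.93 (adjusted p = 2.88e-06). In CDH1 cells 2 were higher and 1 lower, beside 7.62% and 6.87% of all genes: Lsr (2.10, adjusted p = 4.49e-07) and Cdh1 (0.61, adjusted p = 0.00569) rose and Krt8 (-0.55, adjusted p = 0.00326) fell. Cdh1 encodes the E-cadherin that these cells were made to overexpress, so its call there is no separate result. The Cdh1 control there was not above background. This list shares Krt8, Krt18, Epcam and Cdh1 with the epithelial markers, of which 7 of 8 were higher in Clusters 1+2, 5 in each single cluster, and 1 higher and 1 lower in CDH1 cells. The 1 higher in CDH1 cells was Cdh1 again.

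Among transcriptional repressors known from mesenchymal cells, all calls were lower. In Clusters 1+2, 4 of 8 were lower and 0 higher, beside 12.8% and 12.0% of all genes: Zeb2 (-2.10, adjusted p = 1.7e-09), Tcf4 (-0.78, adjusted p = 1.15e-05), Twist1 (-0.72, adjusted p = 0.0362, above background on 1 of the 2 Clusters 1+2 arrays) and Snai1 (-0.58, adjusted p = 0.000358). Zeb2 alone was called in Cluster 1 (-0.39, adjusted p = 0.0059) and in Cluster 2 (-0.77, adjusted p = 6.85e-05), beside 3.37% and 1.04% of all genes lower, and limma called 0 of the 8 in CDH1 cells (2 at an unadjusted p under 0.05), where Zeb2 was at -0.21 (adjusted p = 0.0817). Zeb1 was not called in any comparison, with 0.26 in Cluster 1, -0.32 in Cluster 2, 0.00 in Clusters 1+2 and -0.41 in CDH1 cells (adjusted p from 0.277 to 0.996). Medians of the list were 0.23, -0.29, -0.31 and -0.36 in that order. Of the 7 mesenchymal markers tested, 2 fell in Clusters 1+2, S100a4 (-1.71, adjusted p = 0.00352, n = 1 against 1) and Vim (-0.87, adjusted p = 0.000567), and 2 in CDH1 cells, S100a4 (-1.46, adjusted p = 0.00691, n = 2 against 1) and Fn1 (-1.13, adjusted p = 1.38e-05). Where n is 1, limma takes the spread from the other groups, and a lone array is assumed to vary like them. Limma called 0 of them in Cluster 1 and 0 in Cluster 2, with 1 each at an unadjusted p under 0.05.

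Of the 9 other epithelial transcription factors counted, beside 12.0% of all genes higher and 12.8% lower in Clusters 1+2, 1 was higher, the Grhl2 relative Grhl1 (0.95, adjusted p = 6.17e-06), and 2 lower, Gata3 (-0.78, adjusted p = 1.99e-05) and Klf4 (-0.35, adjusted p = 0.00287). Outside Clusters 1+2 and its control, Grhl1 was above background on at most 1 array of a group, so it was tested only through this experiment. Limma called 0 in Cluster 1 and 0 in Cluster 2 (2 each at an unadjusted p under 0.05). The median in Clusters 1+2 was -0.09. In CDH1 cells, beside 7.62% and 6.87% of all genes, Gata3 (0.28, adjusted p = 0.0458) was higher and Klf4 (-0.75, adjusted p = 2.34e-05) lower.

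Of 16 other regulators of splicing measured, 2 were higher in Clusters 1+2 and 4 lower, beside 12.0% and 12.8% of all genes, with Qk, which favours mesenchymal exons, at -1.71 (adjusted p = 2.65e-08), Rbm47 at 0.89 (adjusted p = 0.000138) and Mbnl2 at -0.63 (adjusted p = 0.000709, 1 control array). In Cluster 1, 1 was higher (Rbm47, 0.53, adjusted p = 0.0168) and 2 lower, beside 4.85% and 3.37% (Hnrnpm, -0.38, adjusted p = 0.0445, and Mbnl2, -0.30, adjusted p = 0.0468). The median in Clusters 1+2 was -0.02. In Cluster 2 limma called 0 of them (3 at an unadjusted p under 0.05). In CDH1 cells, beside 7.62% and 6.87% of all genes, 3 were higher, with Celf2 at 0.60 (adjusted p = 0.000111), and 2 lower, with Rbm47 at -0.44 (adjusted p = 0.0276).

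The transcripts whose exons the Esrp proteins choose were read by 1 probe each, and whether a probe separates exon forms was not determined. Of 10 measured, 3 were higher and 0 lower in Clusters 1+2, beside 12.0% and 12.8% of all genes: Ralgps2 (1.10, adjusted p = 6.12e-05), Enah (0.49, adjusted p = 0.00512) and Nf2 (0.34, adjusted p = 0.00928). Fgfr2 (-0.23, adjusted p = 0.356) and Cd44 (-0.12, adjusted p = 0.298) were not called. Their median was 0.11. In the other 3 comparisons limma called 0 of the 10 (1 or 2 at an unadjusted p under 0.05), and exon choice itself was not measured.

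The promoter of Elf3 is shown since Elf3 was called with both clusters and since the table of RefSeq promoters (GRCm38.p6) held 2 of the 8 regulators, Elf3 and Ovol2. The 250 bases before its start, at chr1:135258473-135258722 on the minus strand, hold 1 match to CACCTG, the E-box that Zeb and Snail proteins bind. It lies 140 bases before the start and is given in capitals. A match is a description of letters and not a bound site.
Elf3: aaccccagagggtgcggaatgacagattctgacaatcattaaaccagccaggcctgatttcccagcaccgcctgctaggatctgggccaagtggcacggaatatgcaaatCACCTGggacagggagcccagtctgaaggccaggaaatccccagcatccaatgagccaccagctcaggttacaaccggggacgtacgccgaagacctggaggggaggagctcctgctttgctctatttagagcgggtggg

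Both strands were searched. CACCTG was found in 17.2% of all 32851 promoters of the same length. The Ovol2 window holds no CACCTG, and neither window holds the Grhl core AACCNGTT (1.79% of promoters) or the Ovol core CCGTTA (2.18%).

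The Clusters 1+2 results differed in how far they rested on the processing. Esrp1, Esrp2 and Grhl2 were called under each of the 15, 14 and 15 alternatives run for them, with log2 fold changes of 0.74 to 4.83, 1.32 to 2.53 and 0.78 to 2.13. The Esrp1 probe passed the filter only through Clusters 1+2, and its control arrays were below background. Its calls are thus not independent of that group, and its range is no measured size. Elf3 was called in 8 of 15 and Ovol1 in 5 of 15. Ovol2, Ehf and Klf5 were not called in any of 15 each.

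**Figure D5:**
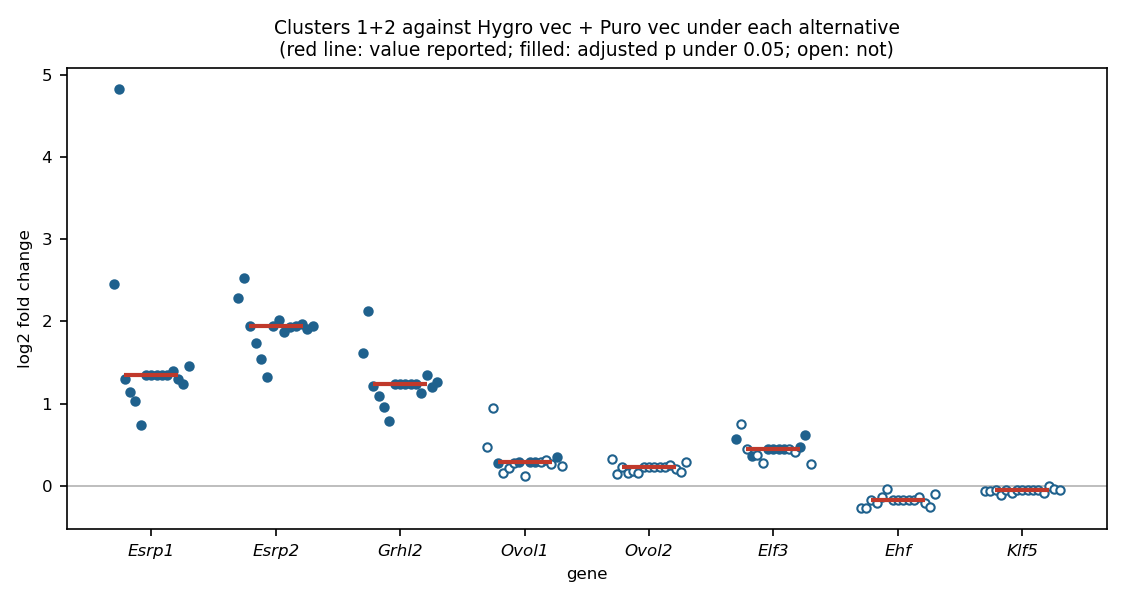
Log2 fold change of each regulator in Clusters 1+2 against Hygro vec + Puro vec, as reported (red line) and under each alternative processing (points; filled where the adjusted p was under 0.05). Points of Esrp1, Esrp2 and Grhl2 are all filled, from 0.74 to 4.83, 1.32 to 2.53 and 0.78 to 2.13, while those of Ovol1 and Elf3 are filled in 5 and 8 of 15. The Esrp1 control was below background, so its values are no measured sizes.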

How the data were processed

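Gene expression was measured on 16 Agilent arrays with 2 colours of 4TO7 cells. Scanner files hold raw intensity per spot and channel, deposited from Feature Extraction 9.5.3.1 on design 014868 (per the file headers). That software also wrote the deposited processed intensity (background subtracted, dye normalised) and a deposited log10 value of red over green. A linear ratio per spot in the authors' matrix matched the processed sample over reference signal (largest absolute log10 difference 8.06e-08), and was not used further. Probe names came from accession, symbol or synonym.

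Spots marked by the scanner software (264 to 1493 per array) were set missing. Background was corrected with normexp (offset 50), each array was normalised by loess in which control spots had weight 0, and the log2 ratios of a probe's spots were averaged (R 4.3.3 with limma 3.58.1 and the data.table package at 1.17.8). Of 41174 probes, 27089 were well above background on both arrays of a group, and the brightest stood for each of 18992 genes. The probe fit kept each passing probe. A single limma model of all 16 arrays held the 8 group means, with Benjamini-Hochberg adjustment over all genes and calls at an adjusted p under 0.05, two-sided. The fit was tested on simulated data. Offset 50 draws fold changes of dim genes towards 0. The number of arrays limits the precision.

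The regulators, the lists of related genes and the settings were chosen with earlier results of these data known. All 8 regulators are named. A gene of the list of other epithelial transcription factors is not reported here, and the counts and medians of that list leave it out. Of the related lists, called genes with the largest change were named, with Cdh1, Zeb1 and Zeb2 throughout. The genes most like a regulator were the 3 with the highest Pearson r. Alternatives tried were the offset, the processed signals, marked spots, centring, spread, the sample channel alone, the filter, the probe rule, slide and replicate blocks, the arrays fitted, the control of Cluster 1 and leaving out each array.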

Additional observations from a re-analysis of the deposited data

Results flagged for a closer look

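The effect of Clusters 1+2 differed from that of Cluster 2 by the test of the difference itself for 3 regulators: by 1.29 for Esrp1 (adjusted p = 5.97e-05; not a measured size, since its other 3 groups were below background and it was tested only through Clusters 1+2), 1.15 for Esrp2 (adjusted p = 0.00242) and 1.02 for Grhl2 (adjusted p = 0.000306), on the log2 scale with limma. Each effect was larger with both clusters on slides 1 and 2 alike for Esrp1 and Grhl2, and on slide 1 for Esrp2, whose Clusters 1+2 repeat B spot was left out. On the second Esrp2 probe, A_51_P296517, it was larger on slide 1 (2.21 against 0.94) and slide 2 (2.13 against 0.87). Both controls on slide 2 were below background on that probe.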

How the results depend on the processing

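The count of regulators called moved in several comparisons. In Cluster 1 it was 0 as reported and 1 with offset 10, scaled spread or only the 4 arrays of the comparison (Grhl2), the processed signals (Elf3), and the sample channel alone or the mean over probes (Esrp2). In Cluster 2 it was 1, and 0 with the processed signals, marked spots kept, scaled spread, the sample channel alone or only the 4 arrays, and 2 under median centring. In Clusters 1+2 it was 5, and 3 with the processed signals, scaled spread, the sample channel alone or only the 4 arrays, with a range of 3 to 4 on leaving out 1 array. In CDH1 cells it was 1, with 2 under the processed signals, 0 with marked spots kept or the sample channel alone, and 0 to 1 on leaving out 1 array. The joint effect minus that of Cluster 2 counted 3, with 1 under the processed signals and 0 from the sample channel alone. Cluster 1 minus CDH1 counted 0, with 2 under the processed signals, 1 under median centring and 1 from the sample channel alone. The 2 Puro controls counted 0, and 1 under the processed signals (Elf3, 1.07, adjusted p = 0.0163). The sample signal of Elf3 was not above background on any Puro control array, so the Elf3 calls that use them rest partly on undetected signal. The cause of these moves was not tested. Of 806 values of single regulators under alternatives, 62 turned sign, uncalled on both sides. No called value turned sign.

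Counts of all genes moved as well: 1560 in Cluster 1 became 191 with marked spots kept and 675 to 978 on leaving out 1 array. In Cluster 2, 521 became 262 (offset 10), 188 (processed signals), 77 (marked spots kept), 2272 (median centring, 2122 higher and 150 lower against 324 and 197), 72 (scaled spread), 131 (sample channel alone), 60 (4 arrays) and 231 to 805 on leaving out 1 array. In Clusters 1+2, 4699 became 2695, 2636, 1874, 1880 and 3116 under the processed signals, marked spots kept, scaled spread, the sample channel alone and 4 arrays. In CDH1 cells 2750 became 1241 with marked spots kept and 1542 to 2064 on leaving out 1 array. Median centring shifted the median of all genes to 0.135 in Cluster 2 and 0.105 in CDH1 cells, and Klf5 was called in Cluster 2 under it alone (0.37, adjusted p = 0.0386).

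Same-letter repeats correlated at -0.0141 in Cluster 1, 0.276 in Cluster 2, 0.333 in Clusters 1+2 and 0.013 in CDH1 cells in their deviations. By the labels and headers they share a letter, and in the Cy3 groups that letter goes with the slide. Whether they share anything else is not stated and was not tested. With repeat as a replicate block, counts of regulators stayed at 0, 1, 5 and 1, and all genes called were 1508, 541, 4719 and 2725. Dim signal limits Esrp1, Ovol1 and Elf3 most.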
